A study of Mus musculus with 8 samples.

Results

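The genes described here are 10 common markers of neurons: Uchl1, Dcx, Tubb3, Map2, Nefl, Nefm, Stmn2, Gap43, Syt1 and Snap25. They were chosen by name, as widely used neuronal markers, and all 10 were found by symbol among the 24062 genes of the deposited count table, which also lists 1153 repeat subfamilies. The cells were immortalized mouse embryonic fibroblasts of a line labelled 6KO. All 8 libraries share that background, labelled as a knockout of Ehmt1, Ehmt2, Setdb1, Suv39h1 and Suv39h2, which encode H3K9 methyltransferases, and of Ring1b, which encodes a PRC1 subunit. Poly(A) RNA was sequenced from 4 groups of 2 libraries. The combined group carried an shRNA against Ring1a and received DS3201, and the inhibitor group carried a control shRNA (ctr) and received DS3201. The knockdown group carried the Ring1a shRNA with no DS3201, and the control group carried the control shRNA with no DS3201. DS3201, an inhibitor of the H3K27 methyltransferases EZH1 and EZH2, was given at 1 uM for 7 days. The shRNAs were delivered by lentivirus at a multiplicity of infection of 2, and cells were selected with blasticidin at 7 µg/ml for 3 days. The labels do not say where each gene was edited or whether 1 or several clones were used. The results are those of cells labelled as 1 fibroblast line, without an unmodified comparison.

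A column of each group starts with 20 and the other with 28, and these are called set 20 and set 28. The labels give each replicate number a batch of its own, but do not say whether the 2 libraries of a group came from separate cultures or separate clones. In the main test, which has no term for the set, every p-value therefore measures the spread between these 2 sets alone. With the set as a block, it measures what is left after a shared set difference is removed. A fit with separate terms for the sets, with and without DS3201, also has a shared shRNA term. Its p-values measure the spread left between the control and Ring1a shRNA libraries of a set, which are no replicates. Levels are given as CPM, the count scaled by the TMM-adjusted library size. Total counts ran from 12738585 to 23688253 a library, and 3 counts, the floor used for values of 0, correspond to 0.122 to 0.265 CPM.

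Neurons carry a set of proteins that most other cells make little of. Tubulin, microtubule-associated proteins and neurofilaments build the axon and dendrites, growth-cone proteins serve its extension, and SNARE proteins with their calcium sensor release transmitter at the synapse. Polycomb repressive complex 2, whose EZH1 or EZH2 subunit methylates H3K27, covers many neuronal and developmental genes in cells of other lineages, and PRC1, with RING1A or RING1B, ubiquitinates H2A. H3K9 methylation by the knocked-out enzymes marks another form of silent chromatin. The RE1-silencing factor REST represses many neuronal genes outside the nervous system.

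The promoters of 4 members are shown because the results turn on them: Uchl1 and Dcx, near 0 without DS3201, and Tubb3 and Map2, of which Map2 behaved differently in the 2 sets. CpG-rich promoters are typical places of Polycomb binding in mammals. Each stretch runs 5′ to 3′ on the gene's strand over 250 bases before and 50 after a RefSeq start (GRCm38.p6), with CpG dinucleotides in capitals.
Uchl1, chr5:66675871-66676170, plus strand: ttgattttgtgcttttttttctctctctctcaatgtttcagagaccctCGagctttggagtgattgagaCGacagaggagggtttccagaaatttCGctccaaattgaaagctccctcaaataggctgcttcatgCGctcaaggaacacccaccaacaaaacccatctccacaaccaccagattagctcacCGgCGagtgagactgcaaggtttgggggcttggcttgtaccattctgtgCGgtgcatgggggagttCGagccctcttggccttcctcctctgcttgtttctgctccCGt
Dcx, chrX:143933170-143933469, minus strand: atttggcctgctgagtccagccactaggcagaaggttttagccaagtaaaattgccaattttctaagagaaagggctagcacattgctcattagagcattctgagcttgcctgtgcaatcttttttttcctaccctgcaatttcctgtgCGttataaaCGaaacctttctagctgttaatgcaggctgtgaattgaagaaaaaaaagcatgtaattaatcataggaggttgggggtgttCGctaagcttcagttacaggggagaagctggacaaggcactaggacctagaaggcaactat
Tubb3, chr8:123411303-123411602, plus strand: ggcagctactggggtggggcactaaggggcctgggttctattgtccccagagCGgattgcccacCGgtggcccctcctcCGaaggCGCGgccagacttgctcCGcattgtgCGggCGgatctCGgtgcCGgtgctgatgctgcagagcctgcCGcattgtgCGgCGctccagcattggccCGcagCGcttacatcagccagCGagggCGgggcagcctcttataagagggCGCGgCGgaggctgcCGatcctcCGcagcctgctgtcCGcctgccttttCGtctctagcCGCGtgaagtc
Map2, chr1:66175079-66175378, plus strand: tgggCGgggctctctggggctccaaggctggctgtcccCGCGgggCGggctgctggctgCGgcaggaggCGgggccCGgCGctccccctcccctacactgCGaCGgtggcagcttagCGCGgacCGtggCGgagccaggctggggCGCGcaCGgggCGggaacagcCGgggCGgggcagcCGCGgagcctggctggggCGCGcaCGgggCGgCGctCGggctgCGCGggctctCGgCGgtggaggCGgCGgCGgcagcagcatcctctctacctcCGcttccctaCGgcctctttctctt
The Map2 stretch held 37 CpG and the Tubb3 stretch 26, more than in 94.4% and 83.1% of the 32851 promoter stretches of that length. The Uchl1 stretch held 9 CpG, more than 54.2% of stretches, and the Dcx stretch held 3, more than 23.3%. The median over all stretches was 7 CpG. CpG content thus differed widely among the 4. The left half-site of the REST motif, TTCAGCACC, searched on both strands, was in none of the stretches of the 5 matched members (Syt1 being the fifth), and in 0.371% of all stretches. A missing match says only that these letters are not in these windows.

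The count of Ring1, the gene that encodes RING1A, was checked first. In set 28 and set 20, the order used for all pairs of libraries here, Ring1 had 2.04 and 3.51 CPM in the combined group, against 7.50 and 20.4 CPM in the inhibitor group. It had 1.41 and 4.51 CPM in the knockdown libraries, against 9.73 and 20.2 CPM in the control libraries. Ring1 was lower with its shRNA in each set (log2 difference -2.32 ± 0.76 without DS3201 and -2.33 ± 0.76 with it), but neither passed adjustment over the 15287 rows tested (edgeR, adjusted p = 1 and 1.00). Against control, the combined group differed by -2.43 ± 0.77 (adjusted p = 0.211), and with the set as a block by -2.39 ± 0.29 (edgeR, adjusted p = 0.00467). Of the 10 fibroblast markers examined, 8 were above 1 CPM in every library, while Thy1 and Lum were below 1 CPM throughout. Their summed level was 12324 to 14905 CPM in the 4 libraries with DS3201, against 19042 to 21320 CPM in the 4 without it. Libraries separated by DS3201 along the first principal component, and by set along the second, with 29.3% of the variance. The inhibitor library of set 28 stood apart along the third, and values without it are given below.

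The neuronal markers were not one group. Uchl1, Dcx and Stmn2 were at or close to 0 without DS3201 and were called higher with it. Tubb3 and Gap43 were already expressed without it and differed less, Map2 differed strongly between the sets, Syt1 was low and not called, and Snap25 was found at a few counts with DS3201 and at 0 without it. Nefl and Nefm were absent or at 1 count everywhere. Averaged over the 4 libraries with DS3201 and divided by exon length, the order of levels was Tubb3 20.6, Uchl1 10.9, Gap43 5.82, Map2 2.54, Dcx 1.09, Stmn2 0.127, Syt1 0.110 and Snap25 0.0594 CPM per kb, with the neurofilament genes Nefm at 0.00547 and Nefl at 0.00464. Without DS3201 the order was Tubb3 10.8, Gap43 3.30, Map2 1.40, Uchl1 0.249, Syt1 0.0594, Nefl 0.00496 and Dcx 0.00133 CPM per kb, with the other 3 at 0. With DS3201 the library ranges of neighbours in this order overlapped except between Dcx and Stmn2 and between Snap25 and Nefm, so the other neighbours do not differ beyond their spread. Without DS3201 the library ranges of Tubb3 and Gap43, of Uchl1 and Syt1, and of Syt1 and Nefl did not overlap, and those of the other neighbours did. Compared within each library, Gap43 was still above Map2 per kb in all libraries without DS3201. In bulk RNA, more cells of a type and more RNA per cell cannot be told apart.

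**Figure D1:**
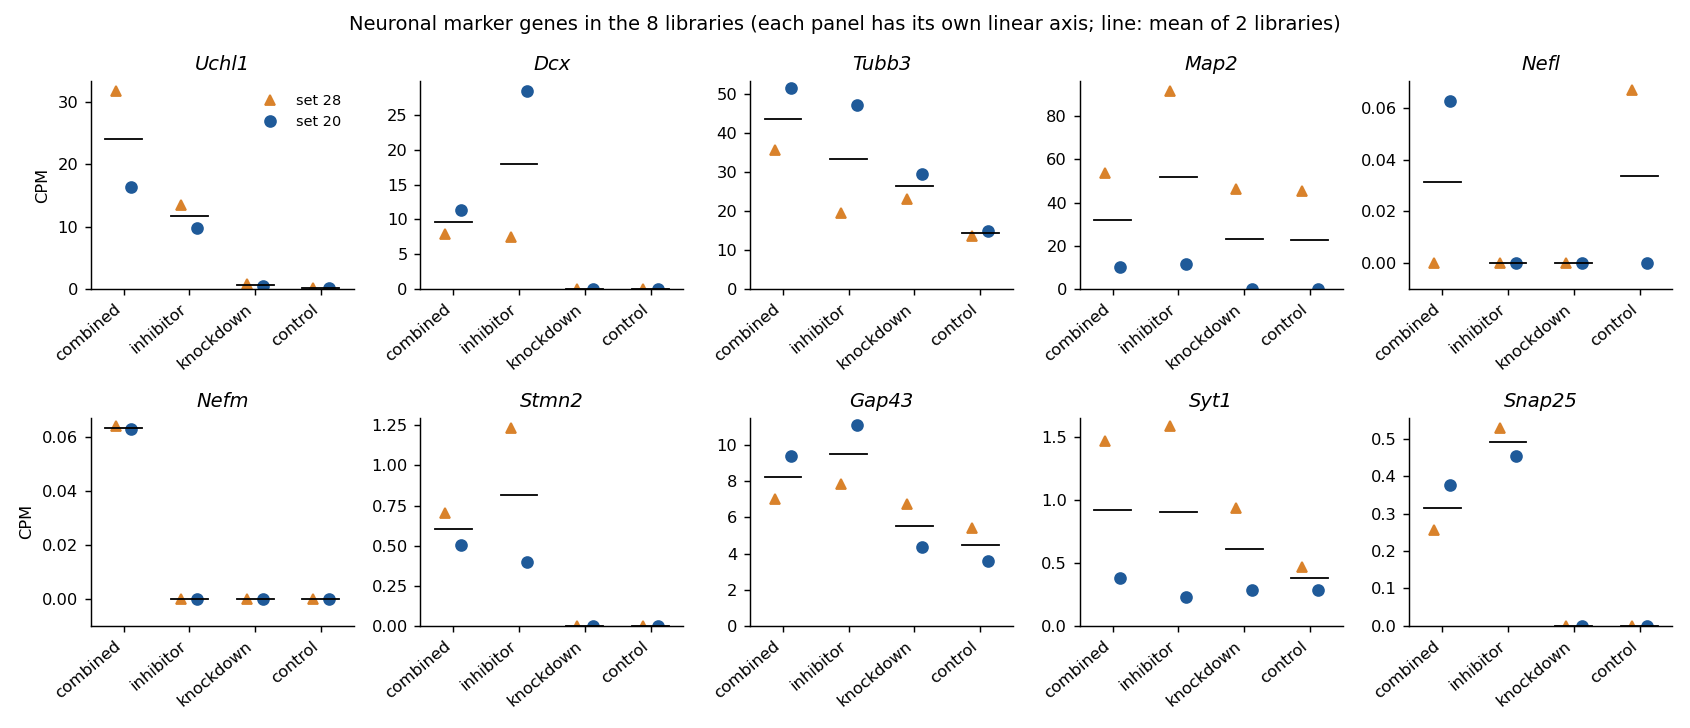
CPM of each neuronal marker gene in each of the 8 libraries, with a linear axis for each gene, triangles for set 28, circles for set 20 and a line at the mean of the 2 libraries. Uchl1, Dcx, Stmn2 and Snap25 are near or at 0 in the knockdown and control groups, while Map2 is at 46.2 and 45.3 CPM in set 28 and at 0.162 and 0.142 CPM in set 20 in those groups.

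Uchl1 encodes the ubiquitin hydrolase PGP9.5, an abundant protein of neurons and neuroendocrine cells. It had 31.7 and 16.3 CPM in the combined libraries and 13.5 and 9.79 CPM in the inhibitor libraries. The knockdown libraries had 0.740 and 0.447 CPM and the control libraries 0.201 and 0.237 CPM. All 4 libraries with DS3201 were thus above all 4 without it, and the sets did not differ in direction. With the control shRNA, Uchl1 rose by 5.67 ± 0.55 on the log2 scale (inhibitor over control, edgeR, adjusted p = 0.0146). With the Ring1a shRNA it rose by 5.35 ± 0.51 (combined over knockdown, edgeR, adjusted p = 0.0138), and over both shRNAs by 5.51 ± 0.37 (edgeR, adjusted p = 0.00164). It was the only member called in each single-shRNA comparison without the set as a block, and both calls were lost when any of the libraries of the 2 DS3201 groups was left out, or one of that comparison's untreated libraries (adjusted p up to 0.140), whereas the call over both shRNAs held in all 25 alternatives run. Among all rows tested, 0.726% were called higher by DS3201 with the control shRNA, 0.602% with the Ring1a shRNA, and 5.24% over both.

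Uchl1 lies at chr5:66676091-66687234 on the plus strand (GRCm38), and the antisense gene Uchl1os overlaps it by 295 bases. Uchl1os had 2.94 and 1.32 CPM in the combined libraries, 0.530 and 0.566 CPM in the inhibitor libraries, 0.0673 CPM and 0 in the knockdown libraries, and 0 in both control libraries. Over both shRNAs its level with DS3201 was 103 times that without it (95% counting interval 18.0 to 4131, over 1 count), a rise that was called (edgeR, adjusted p = 0.0272). Uchl1os passed the filter on low counts only through the groups with DS3201, so this call is a description. Of rows averaging under 1 CPM without DS3201, 29.0% were called higher, against 5.24% of all rows. Whether the counting used strand is not given in the sources used here, so reads of the overlap could belong to either gene.

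Dcx encodes doublecortin, a microtubule-binding protein of migrating young neurons. It had 7.98 and 11.4 CPM in the combined libraries and 7.41 and 28.5 CPM in the inhibitor libraries. It had 0.0673 CPM, a single count, and 0 in the knockdown libraries, and 0 in both control libraries. The groups with and without DS3201 lay far apart, and the inhibitor library of set 20 was the highest. Over both shRNAs the level with DS3201 was 1112 times that without it (95% counting interval 199 to 43972), and the rise was called (edgeR, adjusted p = 0.00878). With the control shRNA Dcx was at least 243-fold higher with DS3201, at an adjusted p of 0.0501 that missed the threshold of 0.05, and with the set as a block it was called (edgeR, adjusted p = 0.00504). With the Ring1a shRNA the ratio was 382 (68.1 to 15155), with an adjusted p of 0.0647 without the block and 0.00644 with it (edgeR). Dcx lies at chrX:143855842-143933311 on the minus strand.

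Stmn2, which encodes the axonal microtubule regulator SCG10, was detected only with DS3201 at this depth. It had 0.702 and 0.502 CPM (11 and 8 counts) in the combined libraries and 1.24 and 0.396 CPM (14 and 7 counts) in the inhibitor libraries, and 0 counts in all 4 others. Over both shRNAs it was at least 16.6-fold higher (edgeR, adjusted p = 0.0442). This call rests on few reads and was lost in 10 of its 25 alternatives, each of which left out 1 library, with adjusted p up to 0.151. Each of the 8 libraries caused a loss when left out. In the single-shRNA comparisons Stmn2 was at least 8.68-fold higher in the inhibitor group (adjusted p = 0.172) and at least 7.92-fold higher in the combined group (adjusted p = 0.215), and neither was called by edgeR.

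Snap25, a SNARE protein of the presynaptic membrane, had the same pattern at a lower level. It had 4 and 6 counts (0.255 and 0.376 CPM) in the combined libraries, 6 and 8 counts (0.530 and 0.453 CPM) in the inhibitor libraries, and 0 in all 4 without DS3201. It did not pass the filter on low counts. In the fit without that filter it was called over both shRNAs (at least 9.96-fold higher, edgeR, adjusted p = 0.0381) but in neither single comparison (adjusted p = 0.189 and 0.241). The neurofilament genes Nefl and Nefm, which encode the light and medium subunits of the axonal neurofilament, did not pass the filter either. Nefl had 1 count in the combined library of set 20 and 1 in the control library of set 28, and Nefm 1 count in each combined library. The neurofilaments were therefore at or under the floor of 3 counts in every library, with or without DS3201. The 2 genes lie side by side on chromosome 14, and their annotated models overlap on opposite strands by 1108 bases.

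Tubb3 encodes the neuronal class III beta-tubulin, and it was expressed in every library. It had 35.6 and 51.3 CPM in the combined libraries and 19.5 and 47.2 CPM in the inhibitor libraries, against 23.1 and 29.4 CPM in the knockdown libraries and 13.7 and 14.8 CPM in the control libraries. The 4 libraries with DS3201 overlapped the 4 without it only through the inhibitor library of set 28, which was the one that stood apart. Over both shRNAs the log2 difference was 0.98 ± 0.30 (edgeR, adjusted p = 0.147), and with the set as a block it was 0.92 ± 0.20 and was called (adjusted p = 0.0213). The combined group was above control by 1.61 ± 0.44 (edgeR, adjusted p = 0.143), and by 1.58 ± 0.29 with the block, which was called (adjusted p = 0.0167).

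Gap43, a growth-cone protein of extending axons, had 7.02 and 9.41 CPM in the combined libraries and 7.86 and 11.1 CPM in the inhibitor libraries. It had 6.73 and 4.38 CPM in the knockdown libraries and 5.43 and 3.56 CPM in the control libraries. The groups did not overlap, but the combined library of set 28 was just above the knockdown library of that set. The difference over both shRNAs was 0.82 ± 0.28 (edgeR, adjusted p = 0.191) and was not called, nor was it with the block (0.84 ± 0.27, adjusted p = 0.0757). Among the 7 members tested, Uchl1, Dcx, Stmn2 and Gap43 had all 4 libraries with DS3201 above all 4 without it, as did 12.3% of all rows tested.

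Map2 encodes a microtubule-associated protein of dendrites, and it split by set. It lies at chr1:66175273-66442583 on the plus strand, where the predicted gene Gm10558 overlaps it by 124 bases on the other strand. In set 28 it had 53.5 CPM in the combined library and 91.7 CPM in the inhibitor library, against 46.2 CPM in the knockdown library and 45.3 CPM in the control library. In set 20 it had 10.4 and 11.6 CPM in the combined and inhibitor libraries, against 0.162 and 0.142 CPM (4 and 3 counts) in the knockdown and control libraries. Set 28 therefore had Map2 without DS3201 and set 20 had almost none. In the fit over all libraries no comparison called Map2 (over both shRNAs 0.83 ± 1.68, edgeR, adjusted p = 0.859). In a fit with separate terms for the sets, chosen after the data were seen, the set 28 libraries without DS3201 were above those of set 20 by 8.16 ± 0.36 (edgeR, adjusted p = 5.02e-05), where 8.16% of rows were called higher and 9.09% lower in set 28. In that fit DS3201 changed Map2 by 0.62 ± 0.21 in set 28, which was not called (adjusted p = 0.0946), while in set 20 it rose by 6.09 ± 0.38 (adjusted p = 6.47e-05). The effect in set 28 minus that in set 20 was -5.46 ± 0.46 (edgeR, adjusted p = 0.00319), and of the 7 members tested only Map2 had this difference called. Of all rows 0.353% were called higher and 1.24% lower in that difference.

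Syt1, the calcium sensor of synaptic vesicle release, had 1.47 and 0.376 CPM in the combined libraries and 1.59 and 0.226 CPM in the inhibitor libraries. It had 0.942 and 0.284 CPM in the knockdown libraries and 0.470 and 0.285 CPM in the control libraries. The 4 libraries with DS3201 overlapped the 4 without it, and the set 28 library was the higher one in each group. Without DS3201, set 28 exceeded set 20 by 1.28 ± 0.53, which was not called (edgeR, adjusted p = 0.144). The difference over both shRNAs was 0.92 ± 0.82 (edgeR, adjusted p = 0.642).

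**Figure D2:**
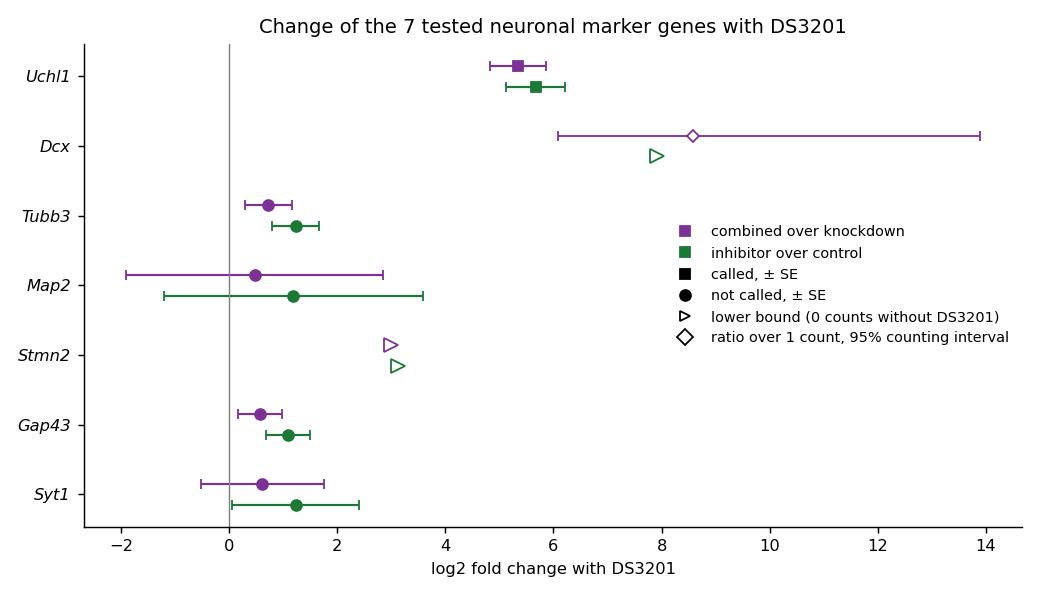
Log2 fold change with DS3201 for the 7 tested neuronal marker genes, purple for combined over knockdown and green for inhibitor over control; squares are called and circles not called, with bars of 1 SE. Open triangles are lower bounds where the group without DS3201 had 0 counts, and the diamond is a ratio over 1 count with its 95% counting interval. Uchl1 lies at 5.35 and 5.67, and the bars of Map2 span the line of no change.

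Over both shRNAs, 3 of the 7 tested members were called higher (Uchl1, Dcx, Stmn2) and none lower, and 5.24% of all rows were called higher and 0.216% lower. All 3, and Syt1, passed the filter on low counts only through the groups with DS3201, since fewer than 2 of their untreated libraries reached its level. They were tested because they were high there, so the share called is a description and is no measure of the members against other rows. With the set as a block, 4 of 7 were called higher, Tubb3 being added, and none lower, against 12.9% of rows higher and 4.16% lower. Without the inhibitor library of set 28, Uchl1 and Dcx were called (2 members), and with the block as well 5 were, Gap43 being added. For members called lower the unadjusted p was under 0.05 for 0 of 7, and DESeq2 called 0. The median difference of the 7 was 0.98 on the log2 scale, and that of all rows was 0.04. Most of the called rows were low before treatment: of the 2264 rows with a mean under 1 CPM without DS3201, 657 (29.0%) were called higher, and of the 13023 other rows 144 (1.11%). Uchl1, Dcx and Stmn2 belonged to the low rows, as did Syt1. With the block the single comparisons called Uchl1 and Dcx, 2 of 7 members in each, where 6.62% of rows were called higher with the control shRNA and 6.05% with the Ring1a shRNA.

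Uchl1, Dcx and Stmn2 were called within each set, in the same libraries as above, so this is no independent repeat. These genes and Syt1 passed the filter only through the groups with DS3201. The shares called are thus a description here too. In set 28, in the fit with separate terms for the sets, Uchl1 (5.56 ± 0.33), Dcx and Stmn2 rose and the other 4 tested members were not called, against 10.2% of all rows called higher. In set 20, 6 of 7 rose, Syt1 (0.07 ± 0.61) being the exception, against 13.2% of rows. There Tubb3 rose by 1.25 ± 0.23 (adjusted p = 0.00762) and Gap43 by 1.37 ± 0.24 (adjusted p = 0.00639), with edgeR. In set 28 they differed by 0.57 ± 0.23 (adjusted p = 0.142) and 0.29 ± 0.25 (adjusted p = 0.451). The difference between the sets itself was not called for either gene (Tubb3 -0.68 ± 0.32, adjusted p = 0.504, and Gap43 -1.08 ± 0.34, adjusted p = 0.258).

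**Figure D3:**
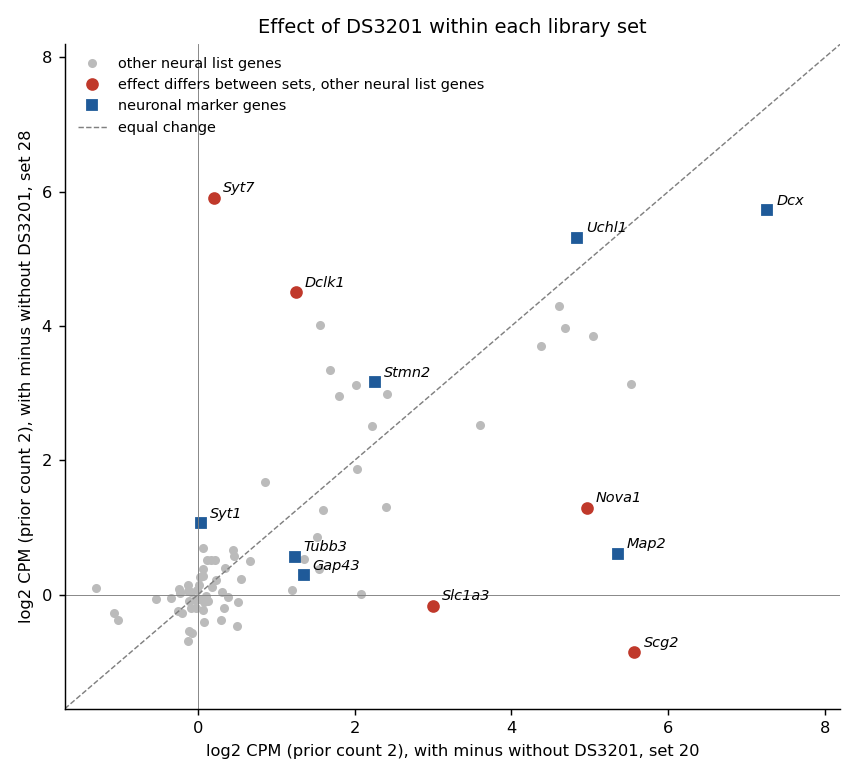
Difference in log2 CPM (prior count 2) with minus without DS3201, averaged over both shRNAs, in set 28 (vertical) and set 20 (horizontal). Blue squares are the 7 tested neuronal marker genes, red circles other listed neural genes whose effect differed between sets, and grey circles the remaining listed genes. Uchl1 lies near the dashed line of equal change (5.32 and 4.83), Dcx to its right (5.73 and 7.27) and Map2 farther right (0.61 and 5.36, each as set 28 and set 20).

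The Ring1a shRNA by itself called no member. Without DS3201, Uchl1 had 0.740 and 0.447 CPM in the knockdown libraries and 0.201 and 0.237 CPM in the control libraries, a difference of 1.37 ± 0.54 (edgeR, unadjusted p = 0.0401, adjusted p = 1). With DS3201 the combined group exceeded the inhibitor group by 1.05 ± 0.42 for Uchl1 (edgeR, unadjusted p = 0.0436, adjusted p = 1.00). Uchl1 was higher with the Ring1a shRNA in both sets and with or without DS3201, and in neither case did this pass adjustment. For Tubb3 the knockdown group exceeded control by 0.88 ± 0.43 without DS3201 (edgeR, unadjusted p = 0.0824, or 0.0183 with the block, adjusted p = 1 in both). In each of these 2 comparisons 1 of 7 members (Uchl1) had an unadjusted p under 0.05, and DESeq2 called 0 members. With the block 2 members (Uchl1 and Tubb3) were under 0.05 without DS3201 and 1 (Uchl1) with it. Over all rows edgeR called 0% higher in either comparison, with or without the block, while 103 rows higher without DS3201 and 124 higher with it had an unadjusted p under 0.05, and DESeq2 called 0 rows higher. In the other direction edgeR called 0 rows, 51 without DS3201 and 148 with it had an unadjusted p under 0.05, and DESeq2 called 1 row in each comparison. The test of whether the DS3201 effect differed by shRNA gave -0.32 ± 0.64 for Uchl1, which was not called.

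The combined group against control gave the difference made by both manipulations. Uchl1 rose by 6.72 ± 0.56 (edgeR, adjusted p = 0.00893) and Dcx was at least 116-fold higher (edgeR, adjusted p = 0.0474). These 2 of 7 members were called, against 1.43% of all rows called higher, and with the block Tubb3 joined them, against 9.21%. Uchl1 and Dcx passed the filter only through the groups with DS3201, as did Stmn2 and Syt1. The shares are therefore a description and no measure of the members against other rows. Leaving out any 1 library other than the knockdown library of set 28 ended the Dcx call (adjusted p up to 0.221), and leaving out the combined library of set 28 or either control library ended that of Uchl1 (up to 0.0871). Stmn2 was at least 7.21-fold higher but was not called (adjusted p = 0.163). The comparison shares its libraries with those above and is no independent repeat of them.

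Other genes of the neuronal cytoskeleton and of axon growth were also called higher with DS3201. Of 18 listed genes 15 were tested, and 6 were called higher over both shRNAs and none lower (7 and 0 with the block), with a median of 1.48. Over all rows 5.24% were called higher, and 12.9% with the block. Of the 6 called genes 5 averaged under 1 CPM without DS3201, a class of rows in which 29.0% were called higher, and Mapt, Dpysl5 and Tubb4a passed the filter only through the groups with DS3201. Dpysl5, a growth-cone collapsin response mediator, rose by 5.03 ± 0.46 (edgeR, adjusted p = 0.00450). Mapt, the axonal microtubule protein tau, had 5.43 and 9.16 CPM in the combined libraries and 2.47 and 5.77 CPM in the inhibitor libraries, against 0.202 and 0.203 CPM in the knockdown libraries and 0.0671 and 0.142 CPM in the control libraries. Mapt rose by 5.14 ± 0.50 (edgeR, adjusted p = 0.00563). The other genes called, named after their values were seen, were Crmp1 (4.61 ± 0.47), the complexin gene Cplx2 (2.88 ± 0.33), Stmn4 (1.48 ± 0.29) and the beta-tubulin Tubb4a. Cplx2 acts in transmitter release but was counted in this list, where it had been placed.

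Genes of the synaptic vesicle and of transmitter release were listed apart from Cplx2. Of these 19 listed genes 15 were tested and none was called in either direction, with a median of 0.23. Of the 15, 2 had an unadjusted p under 0.05 with edgeR and DESeq2 called 0, and 5.24% of all rows were called higher by edgeR. With the block 2 were called, against 12.9% of all rows called higher. These were Syp, the vesicle protein synaptophysin (1.40 ± 0.36, edgeR, adjusted p = 0.0387), and Vamp1, a vesicle SNARE (1.46 ± 0.38, edgeR, adjusted p = 0.0387), with Syp at 2.07 CPM or less in every library. Both averaged under 1 CPM without DS3201 and passed the filter only through the groups with it. In that class 54.4% of rows were called higher with the block, so these calls are a description. Of 12 genes of neuronal RNA-binding proteins and secretory granules 7 were tested and 1 was called higher, Elavl2, a neuronal Hu protein (2.95 ± 0.63, edgeR, adjusted p = 0.0487). With the block 2 were called, where 12.9% of all rows were called higher.

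The transcription factors that specify neurons were mostly silent. Of 15 listed, only 3 passed the filter (Pou4f1, St18 and Pou3f2), all with most of their counts in the DS3201 groups. Pou4f1, a factor of sensory neurons, had 2.36 and 0.941 CPM in the combined libraries and 1.50 and 0.396 CPM in the inhibitor libraries, against 0.336 and 0.162 CPM in the knockdown libraries and 0 in the control libraries. Pou4f1 was the 1 called (edgeR, adjusted p = 0.0475), and all 3 were called with the block. All 3 averaged under 1 CPM without DS3201 and passed the filter only through the groups with it. In that class 29.0% of rows were called higher, and 54.4% with the block, against 5.24% and 12.9% of all rows. The proneural genes Neurog1, Neurog2, Neurod1, Neurod2 and Atoh1 had 0 to 2 counts in every library.

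Genes of the REST repressor complex, which silences neuronal genes in other cells, and of its listed partners were not called without the block. Rest had 59.4 and 61.1 CPM in the combined libraries and 70.8 and 61.4 CPM in the inhibitor libraries, against 74.9 and 61.4 CPM in the knockdown libraries and 65.1 and 54.8 CPM in the control libraries. The groups overlapped, and the difference over both shRNAs was -0.02 ± 0.14 (edgeR, adjusted p = 0.965). None of the 11 genes tested, Ptbp1 and Ptbp2 among them, was called (2 at an unadjusted p under 0.05 with edgeR, and 0 called by DESeq2). With the block 1 was called, the histone deacetylase Hdac2 (0.58 ± 0.16, edgeR, adjusted p = 0.0460). For all rows the shares called higher were 5.24%, and 12.9% with the block.

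The broadly expressed relatives of the members were compared as well, per kb of exon. Tubb5, the main beta-tubulin here, averaged 679 CPM per kb in the 4 libraries with DS3201 and 613 in the 4 without it, far above Tubb3. Vim, an intermediate filament gene related to the neurofilaments, averaged 491 CPM per kb with DS3201 and 483 without it. Neither was called, with or without the block. Stmn1 averaged 122 CPM per kb with DS3201 and 94.6 without it, and was called with the block only (0.37 ± 0.10, edgeR, adjusted p = 0.0404). Map4 (28.8 and 29.3), Bap1 (16.5 and 17.2), Basp1 (293 and 228), Snap47 (21.8 and 21.1), Syt11 (6.38 and 7.18) and Dclk1 (0.639 and 0.200 CPM per kb, with and without DS3201) were the relatives of Map2, Uchl1, Gap43, Snap25, Syt1 and Dcx with the highest level averaged over all 8 libraries, and none was called over both shRNAs. With DS3201 alone Uchl5 (18.9) was above Bap1, and without it Dclk2 (0.284 CPM per kb) was above Dclk1. The Uchl5 mean leaned on the inhibitor library of set 28, at 105 CPM, against 34.2 to 46.2 CPM in the other libraries with DS3201. In the fit with separate terms for the sets, Dclk1 rose by 5.27 ± 0.44 in set 28 (edgeR, adjusted p = 0.000383) and by 1.27 ± 0.24 in set 20 (adjusted p = 0.00945). Of 27 paralogues tested 3 were called higher (Mapt, Tubb4a and Stmn4) and none lower, and 6 and 0 with the block. Among all rows 5.24% were called higher, and 12.9% with the block. These 3 were counted among the cytoskeleton and growth genes above as well. Mapt and Tubb4a averaged under 1 CPM without DS3201 and passed the filter only through the groups with it. Tubb4a had a single count without DS3201 and was 163 times higher with it (95% counting interval 28.8 to 6492, edgeR, adjusted p = 0.0151).

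**Figure D4:**
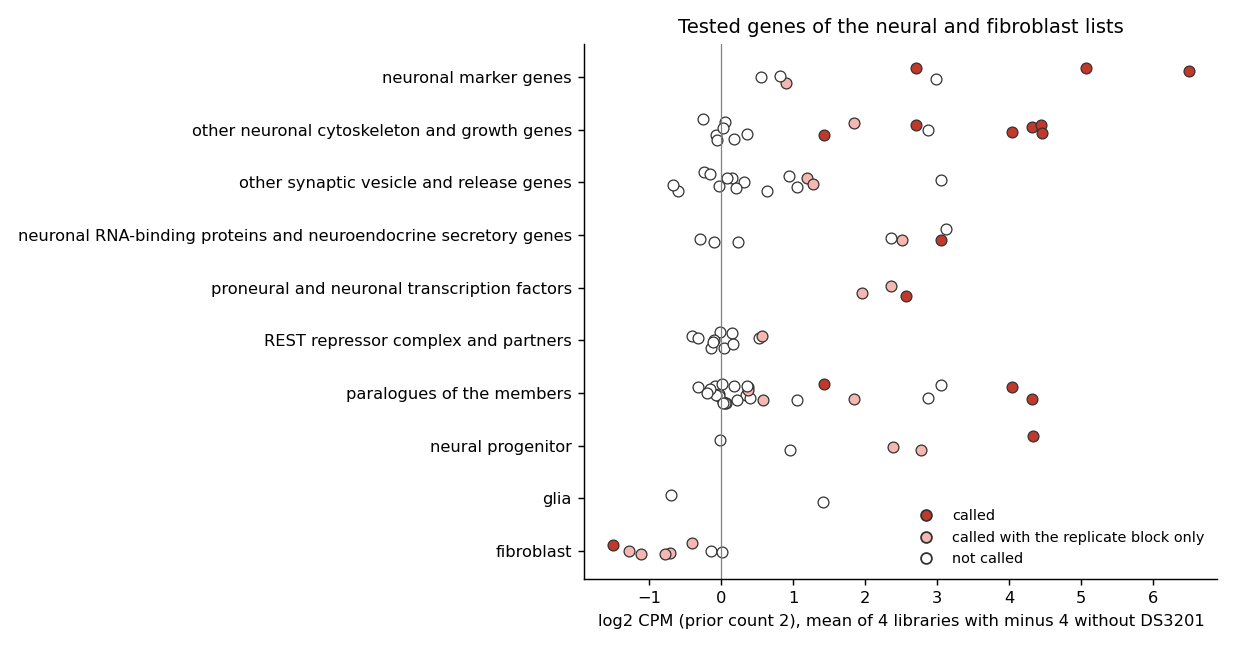
Each circle is a tested gene of the list named at left, placed at the mean log2 CPM (prior count 2) of the 4 libraries with DS3201 minus that of the 4 without it. Dark red is called over both shRNAs, pale red called only with the set as a block, and open not called. Called neuronal marker and cytoskeleton genes lie on the right, and the called fibroblast gene Pdgfrb lies on the left.

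Markers of other cell types moved too, and their part in the results above was not tested. Of 8 fibroblast markers tested, Pdgfrb fell by 1.50 ± 0.17 (edgeR, adjusted p = 0.00794), and with the block 6 of 8 fell. Among all rows 0.216% were called lower, and 4.16% with the block. Of 5 neural progenitor markers 1 was called higher, Fabp7 (4.72 ± 0.67, edgeR, adjusted p = 0.0154), and 3 with the block. Among all rows 5.24% were called higher, and 12.9% with the block. Of the 5 markers 4, Fabp7 included, averaged under 1 CPM without DS3201, and passed the filter only through the groups with it. In that class 29.0% of rows were called higher, and 54.4% with the block. The summed level of the progenitor list, mostly Nes, was 252 to 340 CPM with DS3201 and 252 to 341 CPM without it. The 9 glial markers summed to 6.97 to 12.1 CPM with DS3201 and 8.85 to 13.5 CPM without it, with Aqp4 at 0 in every library, and neither of the 2 tested was called by edgeR or DESeq2 (0 at an unadjusted p under 0.05). Of 5 endothelial markers 2 were called higher (Tek and Tie1), and of 2 pluripotency markers tested 1 (Esrrb). Tek, Tie1 and Esrrb averaged under 1 CPM without DS3201 as well, and passed the filter only through the groups with it. They were tested because they were high there. Of 3 blood markers and 1 epithelial marker tested, edgeR called 0 (0 at an unadjusted p under 0.05), and DESeq2 called the epithelial one. The 10 neuronal markers themselves summed to 100 to 143 CPM with DS3201 and 19.0 to 77.8 CPM without it, the top of the untreated range coming from Map2 in set 28.

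For the members called without the block, the genes with the most similar pattern were found by Pearson correlation of log2 CPM over the 8 libraries among 13149 candidates. These are descriptions over libraries that share depth and set. Closest to Uchl1 were Hist1h2be (r = 0.997), the amino acid transporter gene Slc6a15 (r = 0.993) and Zdhhc14 (r = 0.992). Closest to Dcx were A2m (r = 0.996), Ms4a4b (r = 0.995) and the endothelin receptor gene Ednra (r = 0.995). Closest to Stmn2 were Hdx (r = 0.999), the hedgehog-binding protein gene Hhip (r = 0.997) and Cplx2 (r = 0.996). None of these 9 but Cplx2 was on a neuronal list used here. All 9 were higher in every library with DS3201 than in any without it. A2m, Ms4a4b, Ednra, Hdx and Hhip were at 0 CPM in all 4 libraries without DS3201. Such a split gives a high r by itself, and it is the difference by which the members were called.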

How the data were processed

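The deposited table holds whole-number counts per gene symbol and repeat subfamily, not normalized by the authors. Trim Galore for trimming and TopHat2 for alignment to mm10 are named in the submitters' processing notes. Not given in the sources used here are their versions, the annotation, the counting tool, and its handling of strand and multi-mapped reads. Of 16 columns, 8 match labelled samples, and the other 8 were not used. The labels give each replicate number a batch of its own but do not say which prefix is which number.

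The main test used edgeR 4.0.16 in R 4.3.3: filterByExpr by group (15287 rows kept), TMM, 1 term per group over all 8 libraries, robust quasi-likelihood F tests (two-sided) and Benjamini-Hochberg adjustment over all rows, threshold 0.05. The scripts were first tested on simulated counts. DESeq2 1.42.0 was an alternative. The set entered as a block in a second fit, because set differences correlated between every pair of groups (r = 0.559 to 0.897) and the labels give numbers their batches. Where a group had 0 counts, folds are lower bounds from 3 counts over the group; with 1 to 3 counts, ratios have 95% exact binomial intervals. Both cover counting error only. Log2 CPM values use a prior count of 2, and levels per kb use exon lengths of the GENCODE annotation of GRCm38.

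The members and lists were chosen with earlier results of these data known. Genes named from a list are up to 2 called in each direction with the smallest p over both shRNAs, without the block or, failing that, with it, plus the paralogue per member with the highest level over all libraries; any other called gene was named after its values were seen.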

Additional observations from a re-analysis of the deposited data

Results flagged for a closer look

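The effect of DS3201 differed between the 2 library sets for 6 of the neural and cell type marker genes examined, by a test of the difference itself (edgeR, set 28 minus set 20, in a model chosen once the data had been seen). Among the members this was Map2, with a difference of -5.46 (edgeR, adjusted p = 0.00319). Among all rows tested, 0.353% were called higher and 1.24% lower in this difference.

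Scg2, a granin of secretory granules, had a difference of -7.12 (edgeR, adjusted p = 0.00302). It had 48.6 and 102 CPM in the combined and inhibitor libraries of set 28, against 109 and 148 CPM in the knockdown and control libraries. In set 20 it had 9.48 and 12.3 CPM in the combined and inhibitor libraries, against 0.203 and 0.0475 CPM in the knockdown and control libraries.

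The splicing factor gene Nova1 had a difference of -4.36 (edgeR, adjusted p = 0.00908) and the glutamate transporter gene Slc1a3 one of -3.95 (adjusted p = 0.0351). As for Map2 and Scg2, both were low in set 20 without DS3201. Nova1 had 0.0812 and 0.237 CPM in the knockdown and control libraries there, and Slc1a3 had 0.0812 and 0.190 CPM.

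Dclk1, the doublecortin-like kinase gene, had a difference of 4.0 (edgeR, adjusted p = 0.0167), and the synaptotagmin gene Syt7 one of 9.76 (adjusted p = 0.00873). Both were low in set 28 without DS3201. Syt7 had 10.5 and 4.59 CPM in the combined and inhibitor libraries of set 28 and 0 counts in its knockdown and control libraries, so its fitted value depends on the prior count and is no measure of size.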

How the results depend on the processing

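Uchl1 and Dcx over both shRNAs kept their calls in all 25 alternatives each. With control shRNA, 2 members (Uchl1 and Dcx) were called higher with the replicate block, with RLE size factors and the block, with no filter on low counts, with DESeq2 or without the robust option, and 0 when only the groups compared were fitted. With the Ring1a shRNA the counts were 2 under the same settings, the robust option aside, and 0 with only the groups compared. Combined against control gave 0 members with only the groups compared, and within set 20 DS3201 over both shRNAs gave 6. Leaving out 1 library each gave 0 to 4 members with control shRNA, 0 to 3 with the Ring1a shRNA, 2 to 5 over both, 0 to 4 for combined against control and 0 to 2 for the knockdown with inhibitor, the last 2 being Tubb3 and Uchl1 in the blocked fit that left out set 20's inhibitor library. The cause was not tested, beyond the fewer samples in these fits.

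Reversed signs, all of values never called in the main test, came from leaving out 1 library, apart from Map2 in the knockdown without inhibitor (-0.00034 with the replicate block and -0.00299 with block and RLE). For DS3201 with control shRNA, log2 differences then ran over Map2 -1.01 to 8.42 and Syt1 -0.75 to 2.07. For DS3201 with the Ring1a shRNA, log2 differences then ran over Map2 -1.16 to 7.55 and Syt1 -0.67 to 1.67. For DS3201 over both shRNAs, log2 differences then ran over Map2 -0.27 to 4.44 and Syt1 -0.073 to 1.45. For combined against control, log2 differences then ran over Map2 -1.13 to 7.73. For the knockdown without inhibitor, log2 differences then ran over Dcx -0.39 to 4.10, Gap43 -0.0997 to 0.70, Map2 -7.06 to 7.27 and Syt1 -0.38 to 1.30. For the knockdown with inhibitor, log2 differences then ran over Dcx -1.53 to 0.38, Gap43 -0.52 to 0.21, Map2 -2.32 to 1.49, Stmn2 -1.03 to 0.63, Syt1 -1.22 to 2.02 and Tubb3 -0.088 to 1.15. For the interaction, log2 differences then ran over Map2 -7.96 to 6.37, Stmn2 -1.03 to 0.63, Syt1 -1.90 to 1.36, Tubb3 -0.96 to 0.27 and Uchl1 -0.89 to 0.13.

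The depth of 12738585 to 23688253 counts a library leaves Stmn2 and Snap25 at 14 counts or fewer, and Nefl and Nefm at the floor. With 2 libraries a group, edgeR without the block treats the set difference as spread.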
